A study of Homo sapiens with 15 samples.

Results

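The EGF receptor family and its ligands were followed as 9 named genes across an RNA-seq series of 15 libraries. The genes are the receptors EGFR, ERBB2 and ERBB3, the ligands TGFA, AREG, EREG, HBEGF and BTC, and the receptor inhibitor ERRFI1. They were chosen by symbol, by a rule that does not use their values but with earlier results of these data known. Of the 9, 7 had a row among the 12995 genes of the tables. AREG and BTC had no row by symbol or by gene identifier, so their RNA was not analysed here. The libraries form 5 groups of 3. OKF6 is a normal oral epithelial line, wild type, for which no construct is stated. SCC15 and SCC25 are oral cancer lines, and both carried Cas9 with a doxycycline-inducible guide construct against YBX1, delivered by lentivirus. These cells were sorted as a pool positive for both fluorescent markers and expanded, so they are not clones. The +YBX1 groups, given as wild type in the labels, received no doxycycline, and the –YBX1 groups received 1 µg/ml of it, which induces Cas9-mediated deletion of YBX1, called knockdown here. The labels give 3 days for the groups. The medium of OKF6 and of SCC25 was free of serum (K-SFM) and held 0.2 ng/ml EGF and bovine pituitary extract. SCC15 grew in DMEM with 10% fetal bovine serum. A difference between SCC15 and either other line therefore cannot be told apart from a difference in medium, EGF included.

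EGFR, ERBB2 and ERBB3 belong to the ERBB family of receptor tyrosine kinases. A ligand binds the outer part of the receptor, receptors pair, and their tails are phosphorylated and recruit adaptors that start the RAS–MAPK and PI3K–AKT cascades. ERBB2 has no known ligand of its own and serves as a partner, while ERBB3 has little kinase activity and binds the PI3K regulatory subunit. The ligands are made as membrane-anchored precursors that metalloproteases cut loose. In stratified epithelia such as the oral mucosa, EGFR is a main driver of basal cell growth, and TGFA, HBEGF, AREG and EREG are made by the same cells that carry the receptor. ERRFI1, also called MIG6, is an inducible cytoplasmic protein that binds the kinase domain of EGFR and blocks it. YBX1 is a nucleic acid-binding protein named for the Y-box, a promoter element built on an inverted CCAAT.

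The genes lie apart in hg38, except for a cluster of ligands. EGFR is at chr7:55019017-55211628 on the plus strand, ERBB2 at chr17:39687914-39730426 on the plus strand and ERBB3 at chr12:56076799-56103505 on the plus strand. TGFA is at chr2:70447284-70554193 on the minus strand, HBEGF at chr5:140332843-140346603 on the minus strand and ERRFI1 at chr1:8004404-8026309 on the minus strand. EREG is at chr4:74365145-74388749 on the plus strand, in a stretch of 486054 bases that also holds EPGN, AREG and BTC. Of these 4 neighbouring ligand genes, EREG alone had a row. The sequences shown here are the 250 bases before the start sites of EGFR, TGFA and EREG, the receptor and the ligands that differed most between the lines. They come from RefSeq (GRCh38.p14), run 5′ to 3′ on the gene's own strand and end 1 base before the start. Capitals mark the Y-box letters CCAAT, the AP-1 element TGANTCA and the TATA box letters TATAAA, each searched on both strands. EGFR is given for 2 RefSeq starts, chr7:55018767-55019016 and chr7:55109589-55109838. TGFA is chr2:70553827-70554076 and EREG is chr4:74364895-74365144.
EGFR, first start: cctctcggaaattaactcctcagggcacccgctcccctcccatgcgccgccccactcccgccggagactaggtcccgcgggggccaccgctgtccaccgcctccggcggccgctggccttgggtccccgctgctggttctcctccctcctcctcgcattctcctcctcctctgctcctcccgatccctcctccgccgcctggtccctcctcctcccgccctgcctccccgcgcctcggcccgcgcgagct
EGFR, second start: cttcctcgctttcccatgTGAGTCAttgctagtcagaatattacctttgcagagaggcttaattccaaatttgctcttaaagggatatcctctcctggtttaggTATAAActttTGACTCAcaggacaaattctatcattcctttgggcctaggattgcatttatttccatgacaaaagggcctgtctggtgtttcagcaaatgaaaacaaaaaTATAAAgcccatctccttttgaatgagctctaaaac
TGFA: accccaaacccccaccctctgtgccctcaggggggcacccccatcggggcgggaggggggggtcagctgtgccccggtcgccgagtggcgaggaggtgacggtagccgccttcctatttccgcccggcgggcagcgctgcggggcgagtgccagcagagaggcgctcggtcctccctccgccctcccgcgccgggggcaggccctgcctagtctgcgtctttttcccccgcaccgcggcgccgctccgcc
EREG: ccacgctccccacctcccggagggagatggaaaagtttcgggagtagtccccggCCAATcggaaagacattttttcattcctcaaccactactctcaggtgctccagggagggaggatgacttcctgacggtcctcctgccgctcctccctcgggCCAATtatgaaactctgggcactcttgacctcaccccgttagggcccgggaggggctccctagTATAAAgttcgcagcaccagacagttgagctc

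The windows of EGFR at its first start and of TGFA as shown held none of the 3 elements and were rich in G and C, at 73.6% and 75.6%. A further RefSeq window of TGFA, chr2:70553447-70553696, is not shown. It also held none and had 64.0% G and C. The EREG window held CCAAT in 2 places, 95 and 196 bases before the start, and TATAAA at 32 bases. The second EGFR window held 2 TGANTCA matches and 2 TATAAA matches at 38.8% G and C. RefSeq windows were at hand for 8 of the 9 genes, and a gene with several windows was counted once if any of them matched. CCAAT stood in 3 of the 8 (ERBB2, EREG and ERRFI1), against 37.0% of 27305 genes with windows of the same length and 41.8% of the 10053 of them in the tables. TGANTCA stood in 2 of the 8 (EGFR and ERBB2), against 8.06% and 6.23%, and TATAAA in 3 of the 8 (EGFR, AREG and EREG), against 13.1% and 8.12%. These are letter matches within 250 bases and say nothing about binding.

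Levels are log2 CPM, that is counts scaled to library size (CPM) on a log2 scale, to which the authors had added 0.5 reads. Counted reads per library lay between 4075290 and 6118501, and 3 reads, taken as the floor, were at most 0.677 CPM. The target gene YBX1 was checked first. It lay between 6.31 and 6.74 in SCC25 +YBX1 and between 3.65 and 5.26 in SCC25 –YBX1, and between 5.11 and 6.00 in SCC15 +YBX1 and 3.13 and 3.71 in SCC15 –YBX1. The groups did not overlap in either line, with log2 changes of -2.01 (SE 0.35) and -2.15 (SE 0.35), but the limma p adjusted over all genes was 0.290 and 0.326. The line labels were compared with markers of epithelial cells (cadherin, EPCAM, keratins and TP63 among 8). Their summed level was 10012 to 20899 CPM in OKF6 and 5414 to 11910 in SCC25 +YBX1, but 63.7 to 77.3 in SCC15 +YBX1. KRT5 had 15, 2 and 53 reads in the 3 SCC15 +YBX1 libraries and TP63 had 0, 0 and 1. All 8 markers were lower in SCC15 than in SCC25 and 7 of 8 than in OKF6 (limma adjusted p under 0.05). Of all genes, 23.6% and 23.4% were lower in these comparisons. The libraries labelled SCC15 thus had little RNA of the genes that define an oral keratinocyte. Of 5 mesenchymal state markers, 3 were higher in SCC15 than in SCC25 (CDH2, ZEB1 and SPARC) and 2 lower (FN1 and VIM). Their median log2 difference was 2.05, and 43.6% of all genes were called in either direction. Against OKF6, where 50.3% of all genes were called, 3 were higher in SCC15 (CDH2, ZEB1 and VIM), FN1 was lower and SPARC did not pass. Their sum of 427 to 451 CPM in SCC15 +YBX1, 2406 to 3134 in SCC25 +YBX1 and 759 to 1897 in OKF6 follows FN1, whose mean level was 4.12, 10.9 and 9.93 log2 CPM. The measured markers of fibroblasts (2 of 5 listed) summed to at most 98.1 CPM in any library. Those of leukocytes (2 of 4) reached 59.7 CPM in SCC25 –YBX1 and lay at 0.506 to 2.00 in SCC15 +YBX1. No endothelial marker had a row. The part of these differences in the results on SCC15 was not tested. In such bulk samples fewer cells of a type and less RNA per cell cannot be told apart.

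EGFR, the receptor for all 5 ligands listed, was abundant in OKF6 and SCC25 and low in SCC15. It stood at 6.00, 7.67 and 5.80 log2 CPM in OKF6 replicates 1 to 3, at 6.85, 6.94 and 6.68 in SCC25 +YBX1, and at 3.02, 2.21 and 2.57 in SCC15 +YBX1. SCC15 lay under both other lines in every library, while SCC25 and OKF6 overlapped, with OKF6 replicate 2 above all SCC25 +YBX1 libraries. The difference was 18.7-fold against SCC25 (log2 -4.22, SE 0.43, limma adjusted p = 1.79e-05) and 14.8-fold against OKF6 (log2 -3.89, SE 0.43, adjusted p = 2.48e-05). SCC25 and OKF6 differed by 0.33 on the log2 scale (95% interval -0.62 to 1.29, adjusted p = 0.590). That value turned on single OKF6 libraries. Without OKF6 replicate 2 it was 0.92 with an adjusted p of 0.0270, and without replicate 3 it was -0.01. The nearest genes with a row on either side of EGFR were SEC61G, 259043 bases before it, and LANCL2, 153709 bases after it. SEC61G differed by 0.20 between SCC15 and SCC25 (adjusted p = 0.664) and LANCL2 by -0.91 (adjusted p = 0.0542).

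ERBB2, the partner receptor, had the smallest differences of the 3 receptors between lines. Its levels were 4.18, 5.20 and 4.87 in OKF6, 4.78, 4.59 and 3.97 in SCC25 +YBX1, and 3.60, 3.88 and 3.77 in SCC15 +YBX1. SCC15 lay lowest without overlap, its highest library (3.88) just under the lowest of SCC25 (3.97). The difference from OKF6 passed the test (log2 -1.001, SE 0.33, adjusted p = 0.0264), and that from SCC25 did not (log2 -0.70, 95% interval -1.43 to 0.03, adjusted p = 0.111). With 1 library left out, the call against OKF6 held in 1 of 6 fits, with adjusted p from 0.00362 to 0.0771. Against SCC25 the difference passed in 1 of 9 alternative settings, with only these 2 groups in the fit (adjusted p = 0.0378). It passed in 0 of 6 fits without a library (adjusted p from 0.0665 to 0.312). The exons of ERBB2 overlap those of PGAP3 and MIEN1 on the other strand, and both have rows. The strand setting of the read counting is not given in the sources used here, so reads could be shared between them. The exons of EGFR and ERRFI1 also overlap genes of the opposite strand, and those have no row.

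ERBB3, the receptor that couples to PI3K, was measured from few reads and spread widely within OKF6 and SCC25. OKF6 gave 1.66, 4.13 and 3.51, SCC25 +YBX1 gave 0.98, 2.01 and 0.98, and SCC15 +YBX1 gave -0.29, -0.76 and -0.89, which is 4, 3 and 3 reads. SCC15 was at the floor, OKF6 replicate 1 stood far under the other OKF6 libraries, and OKF6 overlapped SCC25. SCC15 was 13.4-fold lower than OKF6 (log2 -3.75, SE 0.66, adjusted p = 0.000727) and 3.92-fold lower than SCC25 (log2 -1.97, SE 0.66, adjusted p = 0.0324). The call against SCC25 was lost in each of the 6 fits without a library (adjusted p from 0.0551 to 0.124). It was also lost with 1 added to CPM (0.0775) and with voom weights (0.0858). SCC25 was lower than OKF6 by 1.77 on the log2 scale without passing (95% interval -3.23 to -0.31, adjusted p = 0.0655). Without OKF6 replicate 1 that difference was -2.49 with an adjusted p of 0.00525, the 1 of 6 fits without a library that passed. It also passed in 2 of 8 other alternatives.

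TGFA, transforming growth factor alpha and a ligand of EGFR alone, was abundant in OKF6 and SCC25 and near the floor in SCC15. It stood at 6.92, 7.21 and 7.66 in OKF6 and at 6.48, 6.36 and 6.60 in SCC25 +YBX1. In SCC15 +YBX1 it was at -0.29, -0.11 and 0.94, from 4, 5 and 12 reads. The 3 lines did not overlap. Summed over the libraries, TGFA was 76.2-fold higher in SCC25 than in SCC15 (counting interval 49.7 to 124) and 136-fold higher in OKF6 (88.9 to 220). The fitted differences of SCC15 were -6.30 against SCC25 (SE 0.34, adjusted p = 2.94e-07) and -7.08 against OKF6 (SE 0.34, adjusted p = 1.34e-07). SCC25 lay under OKF6 by 0.78 (95% interval -1.54 to -0.03, adjusted p = 0.108). That difference passed under 3 of 9 alternatives, with only the 2 groups in the fit (0.0402), with 1 added to CPM (0.0487) and with voom weights (0.0245). It passed in 0 of 6 fits without a library (adjusted p from 0.0595 to 0.284).

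HBEGF, a heparin-binding ligand of EGFR and ERBB4, was also lower in SCC15. It was 5.61, 5.28 and 6.15 in OKF6, 6.194, 6.197 and 6.627 in SCC25 +YBX1, and 3.08, 4.01 and 3.46 in SCC15 +YBX1. The 3 lines again did not overlap, with SCC25 highest, its lowest library (6.19) just above the highest of OKF6 (6.15). SCC15 was 7.07-fold lower than SCC25 (log2 -2.82, SE 0.30, adjusted p = 2.6e-05) and 4.48-fold lower than OKF6 (log2 -2.16, SE 0.30, adjusted p = 0.000140). SCC25 was above OKF6 by 0.66 (95% interval -0.01 to 1.33), which did not pass (adjusted p = 0.125).

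EREG, epiregulin, a ligand of EGFR and ERBB4, was the 1 of the 7 genes for which SCC25 differed from OKF6 in the test. It had 350, 167 and 310 reads in OKF6, at 6.07, 5.24 and 5.71 log2 CPM. SCC25 +YBX1 had 36, 27 and 23 reads, at 2.78, 2.44 and 2.29, and SCC15 +YBX1 had 0, 0 and 2 reads. The lines were ordered OKF6, SCC25, SCC15 without overlap. SCC25 was 9.01-fold lower than OKF6 (log2 -3.17, SE 0.61, adjusted p = 0.00326), and this call held in each of the 6 fits without a library (adjusted p from 0.00518 to 0.0167). EREG was 475-fold higher in OKF6 than in SCC15 (counting interval 131 to 3932) and 50.7-fold higher in SCC25 than in SCC15 (13.6 to 425). Both calls of SCC15 passed in limma, with adjusted p of 1.14e-06 and 4.49e-05, though the fitted size rests on the 0.5 reads added to libraries at 0.

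ERRFI1, the inhibitor of EGFR, differed between the lines in the same direction as the receptor. It was 5.70, 5.48 and 5.27 in OKF6, 5.33, 5.56 and 5.27 in SCC25 +YBX1, and 3.72, 3.51 and 3.22 in SCC15 +YBX1. OKF6 and SCC25 overlapped and SCC15 lay under both. SCC15 was 3.74-fold lower than SCC25 (log2 -1.90, SE 0.23, adjusted p = 7.37e-05) and 3.996-fold lower than OKF6 (log2 -1.9985, SE 0.23, adjusted p = 3.85e-05). SCC25 minus OKF6 was -0.10 (95% interval -0.62 to 0.42, adjusted p = 0.789).

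**Figure D1:**
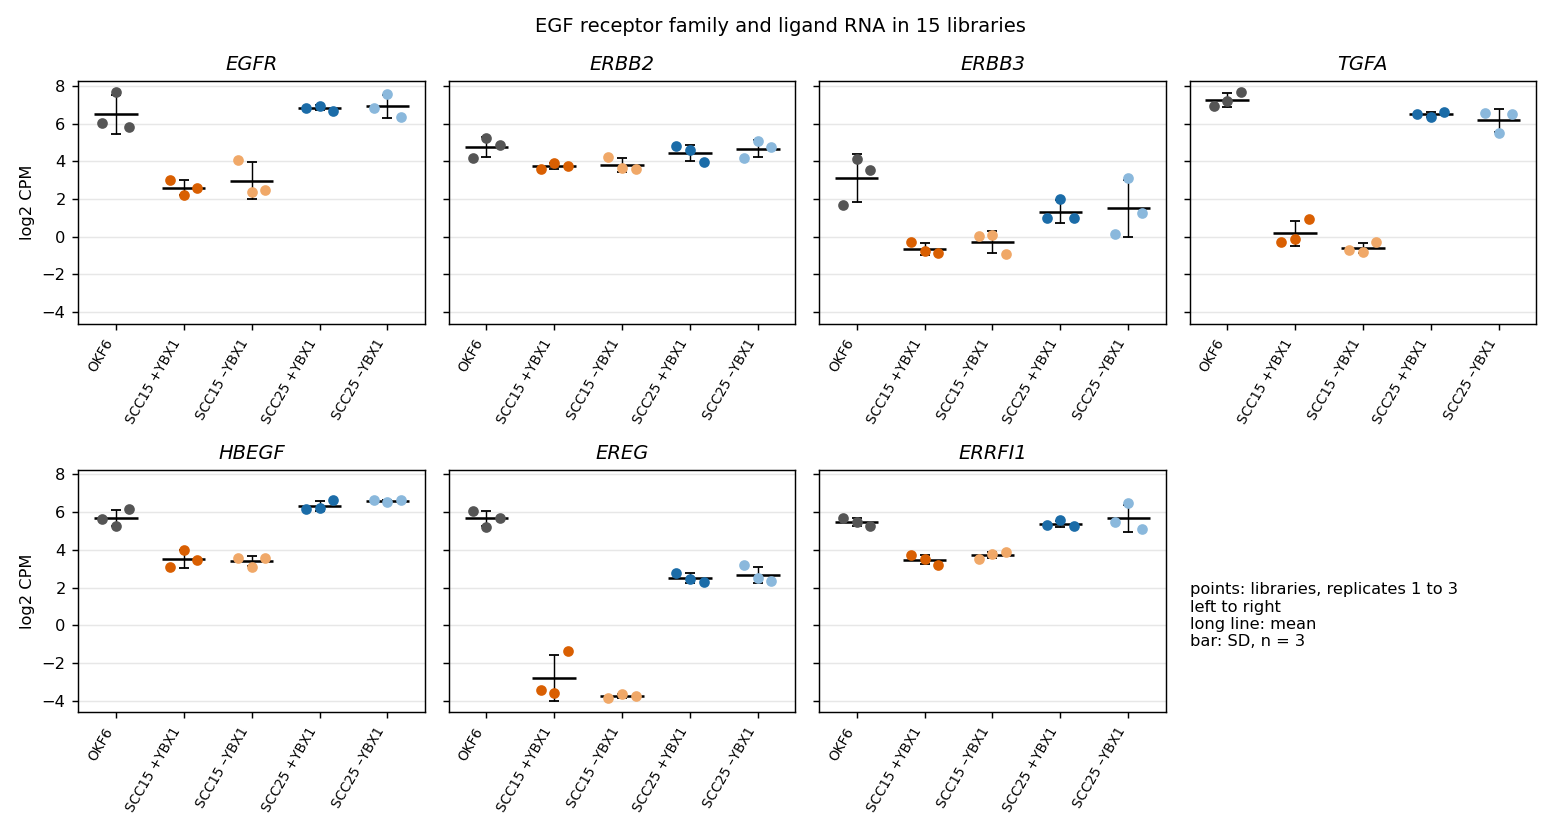
Log2 CPM (vertical axis) of the 7 family genes with a row, 1 point per library in the 5 groups, with the mean and SD of 3 libraries. The SCC15 groups sit low for EGFR, TGFA, HBEGF, EREG and ERRFI1, and the –YBX1 points overlap the +YBX1 points of the same line for every gene but EREG in SCC15, which had 0 to 2 reads.

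Counted over the family, 7 of 7 genes were lower in SCC15 than in OKF6 (adjusted p under 0.05), where 23.4% of all genes were called lower, 26.9% higher and 50.3% in either direction. In SCC15 against SCC25, 6 of 7 were lower, all but ERBB2, where 23.6% of all genes were lower, 2602 genes were higher and 43.6% were called in either direction. With 1 library left out, 5 of 7 were called against SCC25 in each of the 6 fits, and 6 to 7 against OKF6. SCC25 against OKF6 gave 1 of 7 lower (EREG), where 11.3% of all genes were lower, 18.9% higher and 30.2% called in either direction. The libraries of SCC15 did not overlap those of either other line for 7 of 7 genes, against 54.4% of all genes for OKF6 and 66.6% for SCC25. SCC25 and OKF6 did not overlap for 3 of 7 (TGFA, HBEGF and EREG), against 43.3%. The median log2 difference of the 7 genes was -3.75, -2.82 and -0.30 in these comparisons, beside 0.10, -0.01 and 0.13 over all genes. The 3 comparisons share their libraries pairwise and are not independent.

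**Figure D2:**
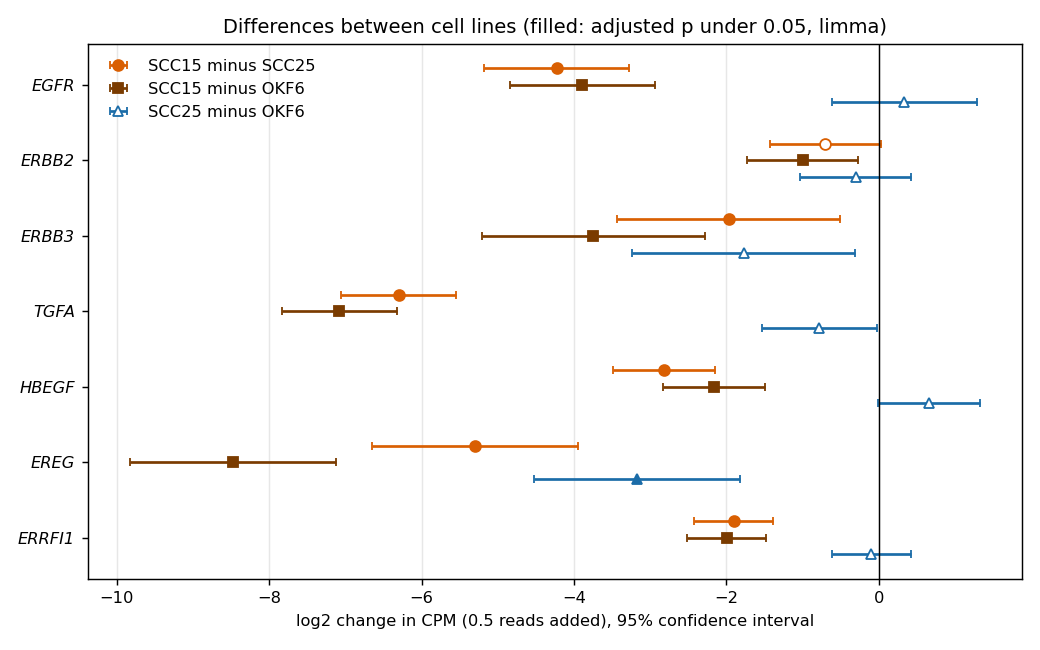
Log2 difference in CPM (horizontal axis, with 0.5 reads added) of each family gene in the 3 comparisons of lines, with 95% confidence intervals from limma, filled where the adjusted p was under 0.05. All circles and squares lie left of 0, from -0.70 for ERBB2 to -8.47 for EREG, while the triangles of SCC25 minus OKF6 lie near 0 for EGFR and ERRFI1.

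The rest of the family was looked up from a list of 7 further genes, of which NRG1 and NRG2 had rows. ERBB4, EGF, EPGN, NRG3 and NRG4 had none. The neuregulins are ligands of ERBB3 and ERBB4. NRG1 had 1, 0 and 0 reads in SCC15 +YBX1. It was at 7.29, 7.32 and 6.61 log2 CPM in SCC25 +YBX1 and at 6.13, 4.81 and 5.27 in OKF6, which is 2486-fold (counting interval 446 to 98238) and 823-fold (147 to 32555) above SCC15. NRG2 went the other way. It had 72 reads in all in SCC15 +YBX1 and 8 in SCC25 +YBX1, and was higher in SCC15 by 2.85 on the log2 scale (SE 0.56, adjusted p = 0.00184). OKF6 had 0 NRG2 reads in every library, so SCC15 was at least 5.94-fold higher against a floor of 3 reads per library. NRG1 was higher in SCC25 than in OKF6 (log2 1.67, SE 0.55, adjusted p = 0.0407), a call that held in 1 of the 6 fits without a library.

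The genes that release ligands from their precursors or control that release included 11 with a row. They are ADAM proteases, rhomboids and iRhoms, their partners and the protease inhibitor TIMP3. In SCC15 against SCC25, 8 of them were lower and 0 higher, and against OKF6 7 were lower and 0 higher, with median log2 differences of -1.401 and -1.67. Over all genes 23.6% and 23.4% were lower, and 43.6% and 50.3% were called in either direction. RHBDL2, a rhomboid protease that cuts EGF, had 0 reads in SCC15 and was at least 27.6-fold lower than in SCC25 and 19.5-fold lower than in OKF6. ADAM8 was lower in SCC15 by 5.26 and 5.12 on the log2 scale than in SCC25 and OKF6 (adjusted p = 5.48e-07 and 4.71e-07). RHBDF2, an iRhom that carries the sheddase ADAM17 to the cell surface, was 9.49-fold lower in SCC15 than in SCC25 (adjusted p = 7.16e-06). ADAM10, a main sheddase of EGF and BTC, was 4.18-fold lower (adjusted p = 0.00571). SCC25 against OKF6 gave 3 higher and 1 lower, 36.4% of the 11, beside 30.2% of all genes called in either direction. Among them were FRMD8, which stabilises the iRhoms, 3.40-fold higher (adjusted p = 0.000260), and ADAM19, 3.41-fold higher (adjusted p = 0.0428).

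Adaptors and kinases that receive the signal numbered 30, all with a row. In SCC15 against SCC25, 11 were lower and 1 higher (median -0.26), and against OKF6 14 were lower and 2 higher (median -0.99). The 12 and 16 of 30 called in either direction stand beside 43.6% and 50.3% of all genes, so the share called was near that of all genes. GRB7, an adaptor that binds ERBB receptors and lies beside ERBB2 on chromosome 17, had 2, 3 and 2 reads in SCC15 +YBX1. It was 407-fold higher in SCC25 (counting interval 197 to 1013) and 143-fold higher in OKF6 (69.2 to 357). SHC1, the adaptor that links the receptor to GRB2 and RAS, was 6.74-fold lower in SCC15 than in SCC25 (adjusted p = 6.75e-07), and the exchange factors VAV3 and VAV2 were 7.51-fold and 3.94-fold lower (adjusted p = 0.0054 and 1.1e-05). PIK3R1, the regulatory subunit of PI3K, was lower than in OKF6 in both cancer lines, 9.99-fold in SCC15 (adjusted p = 3.23e-05) and 8.52-fold in SCC25 (adjusted p = 0.000211). SCC25 against OKF6 gave 3 higher and 7 lower, 33.3% of the 30, near the 30.2% of all genes called in either direction. GAB1, a docking protein for PI3K, was 3.15-fold lower in SCC25 (adjusted p = 0.0119).

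Genes that remove or restrain the receptors (ubiquitin ligases, sorting proteins and phosphatases) numbered 23, all with a row. In SCC15 against SCC25, 7 were lower and 0 higher (median -0.53), and against OKF6 8 were lower and 2 higher (median -0.50). The 7 and 10 of 23 called are a lower share than the 43.6% and 50.3% of all genes. CBLC, an epithelial ubiquitin ligase of the CBL family, had 0, 0 and 1 reads in SCC15 +YBX1, and was 174-fold higher in SCC25 (counting interval 30.8 to 6933) and 287-fold higher in OKF6 (51.1 to 11396). PTPRK, a phosphatase that acts on EGFR, was 8.12-fold lower in SCC15 than in SCC25 (adjusted p = 7e-06), and PTPN1 4.27-fold and SH3KBP1 3.96-fold lower (adjusted p = 8.06e-05 and 4.52e-05). PTPN12 was 7.46-fold lower in SCC15 than in OKF6 (adjusted p = 3.33e-06). SCC25 against OKF6 gave 4 higher and 2 lower, 26.1% of the 23, beside 30.2% of all genes called in either direction. PTPRK was 2.24-fold higher (adjusted p = 0.00849) and CD2AP 2.24-fold lower (adjusted p = 0.009998).

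Genes known to be induced by EGF through the MAPK cascade (early transcription factors, and the DUSP, SPRY and SPRED feedback inhibitors) were mostly lower in SCC15. Of 20 with a row, 15 were lower and 1 higher in SCC15 than in SCC25, and 16 were lower and 0 higher than in OKF6, where 23.6% and 23.4% of all genes were lower. The median log2 differences were -4.07 and -3.60, or -3.48 and -2.70 with SPRY4, at 0 reads in SCC15, set to its bound at 3 reads per library. DUSP6, the phosphatase that switches ERK off, was lower in SCC15 by 7.52 against SCC25 (SE 0.40, adjusted p = 2.89e-07) and by 8.10 against OKF6 (SE 0.40, adjusted p = 1.54e-07). FOSL1, an AP-1 subunit, was lower by 7.15 and 7.21 (adjusted p = 1.38e-06 and 9.76e-07), and PHLDA1 was 173-fold lower than in SCC25 (adjusted p = 3.37e-08). ETV5 had 3, 2 and 3 reads in SCC15 and was 231-fold higher in SCC25 (counting interval 117 to 536). In SCC25 against OKF6, 3 were higher and 2 lower, with a median of -0.07. The share called was 25.0%, beside 30.2% of all genes called in either direction. ETV5 was 3.71-fold higher in SCC25 (adjusted p = 0.00169) and the MAPK inhibitor SPRED2 3.01-fold lower (adjusted p = 0.0353).

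**Figure D3:**
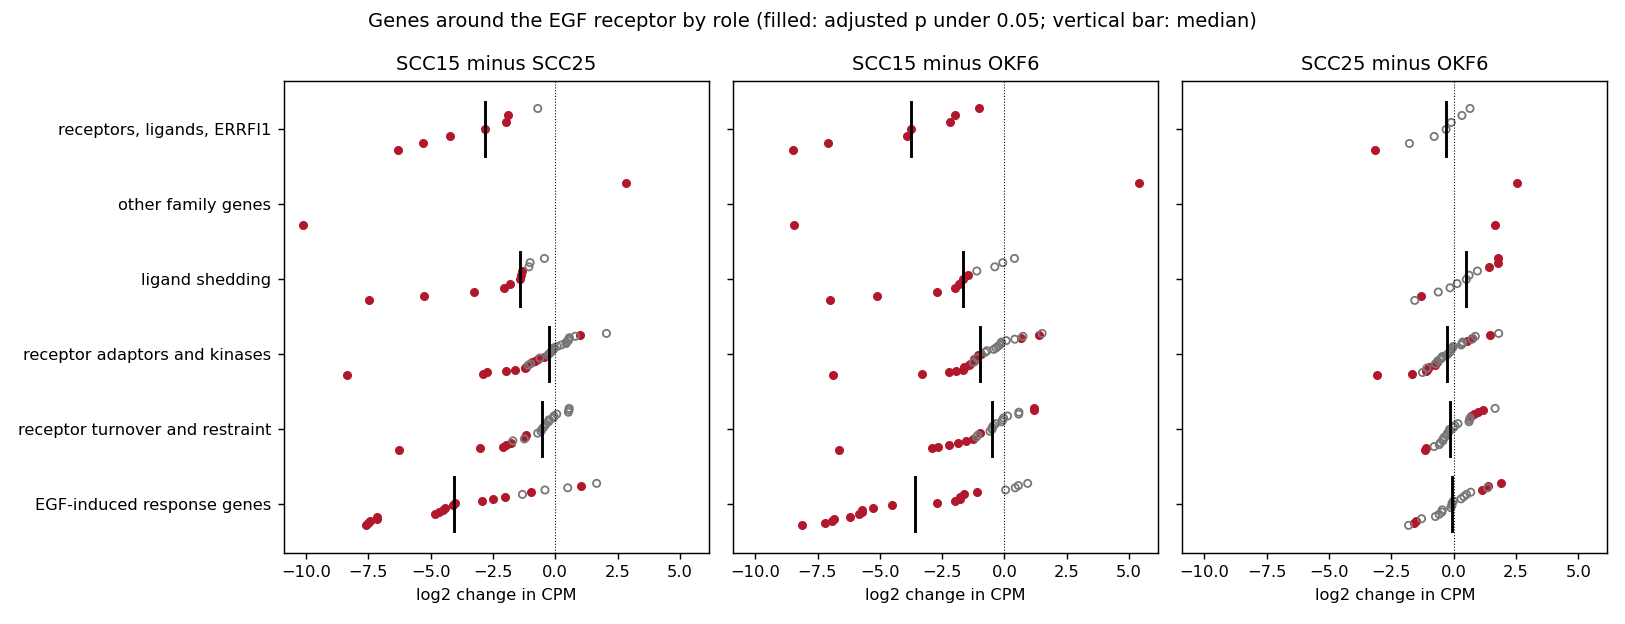
Log2 difference in CPM (horizontal axis) of every listed gene with a row, by role, in the 3 comparisons of lines, filled where the adjusted p was under 0.05. Bars mark the medians of lists with over 2 genes. The EGF-induced genes have medians of -4.07 and -3.60 in the comparisons of SCC15 and of -0.07 in SCC25 minus OKF6.

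Knockdown of YBX1 was then compared within each line, as –YBX1 minus +YBX1. The question was whether RNA of the receptors or ligands follows YBX1. Every –YBX1 library received doxycycline and no +YBX1 library did, and no library had doxycycline without the YBX1 guide. An effect of YBX1 loss therefore cannot be told apart from one of doxycycline or of the cutting itself. No family gene passed the test in SCC25 or in SCC15 (0 of 7 in each), where limma called 0.00% of all genes, so nothing about the family can be read from these counts. At an unadjusted p under 0.05 there were 0 of 7 family genes in either line, against 401 of all genes in SCC25 (3.09%) and 302 in SCC15 (2.32%). The groups did not overlap for 0 of 7 family genes in SCC25, against 7.31% of all genes, and for 1 of 7 in SCC15 (EREG, at the floor), against 7.04%. The median difference of the family was 0.18 in SCC25 and 0.07 in SCC15. The +YBX1 libraries are the ones used above for the comparison of lines.

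EGFR in SCC25 –YBX1 was at 6.81, 7.58 and 6.34 log2 CPM, around the +YBX1 values, with a difference of 0.09 (95% interval -0.80 to 0.97, unadjusted p = 0.837 in limma). In SCC15 –YBX1 it was at 4.08, 2.39 and 2.45, with a difference of 0.37 (95% interval -0.51 to 1.26). SCC15 –YBX1 replicate 1 alone stood above its group, and without it the difference was -0.18. ERBB2 was at 4.15, 5.05 and 4.78 in SCC25 –YBX1 and at 4.25, 3.64 and 3.57 in SCC15 –YBX1, with differences of 0.21 (95% interval -0.42 to 0.85) and 0.07 (95% interval -0.56 to 0.70). ERBB3 was at 0.13, 3.11 and 1.27 in SCC25 –YBX1, from 5, 44 and 12 reads, and at 0.05, 0.07 and -0.93 in SCC15 –YBX1. Its intervals were the widest, -1.24 to 1.59 and -1.04 to 1.78.

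TGFA came nearest to the threshold. It had 4, 3 and 5 reads in SCC15 –YBX1 against 4, 5 and 12 in SCC15 +YBX1, a difference of -0.78 (95% interval -1.61 to 0.04, unadjusted p = 0.0615, adjusted p = 1.00) that was lower in 3 of 3 same-numbered pairs. In the replicate 1 pair both libraries had 4 reads, so that pair differed by library size alone. The groups overlapped, and the difference between them rests on a few reads near the floor. In SCC25 –YBX1 TGFA was at 6.58, 5.48 and 6.48, a difference of -0.30 (95% interval -1.12 to 0.53). HBEGF was at 6.62, 6.54 and 6.65 in SCC25 –YBX1, a difference of 0.26 (95% interval -0.25 to 0.78) and higher in 3 of 3 pairs, though by only 0.02 in replicate 3. In SCC15 –YBX1 it was at 3.60, 3.11 and 3.57, a difference of -0.09 (95% interval -0.61 to 0.42).

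EREG was at 3.18, 2.51 and 2.35 in SCC25 –YBX1, a difference of 0.18 (95% interval -1.045 to 1.403). It had no read in the 3 libraries of SCC15 –YBX1, beside 0, 0 and 2 in SCC15 +YBX1, so both groups were at or under the floor and no fold is given. ERRFI1 was at 5.46, 6.46 and 5.11 in SCC25 –YBX1 and at 3.53, 3.77 and 3.88 in SCC15 –YBX1, with differences of 0.29 (95% interval -0.34 to 0.93) and 0.24 (95% interval -0.39 to 0.88). SCC25 –YBX1 replicate 2 was the highest of its group for EGFR, ERBB2, ERBB3 and ERRFI1 and the lowest for TGFA. In this library 16.2% of counted reads fell on its top 10 genes, the highest share of the 15. Without it the differences in SCC25 were -0.25 for EGFR, -0.63 for ERBB3, -0.10 for ERRFI1 and 0.05 for TGFA, so the sign turned for these 4 genes, while 0 of 7 passed as before. Over all genes 6 were then called. The interaction test, which asks whether the effect of knockdown differs between the lines, called 0 of 7 family genes and 0.00% of all genes. At an unadjusted p under 0.05 it gave 0 of 7 and 294 of all genes (2.26%). The intervals of that difference stayed wide, -1.54 to 0.97 for EGFR and -0.68 to 1.65 for TGFA on the log2 scale.

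**Figure D4:**
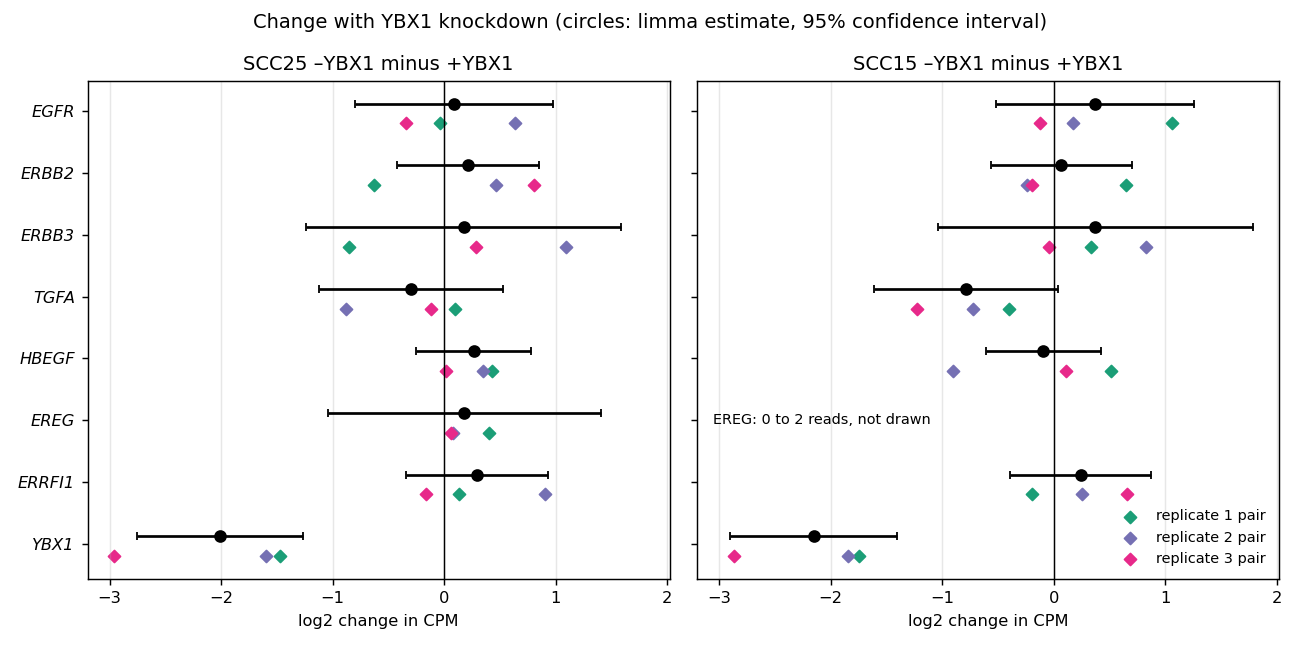
Log2 change in CPM (horizontal axis) of the family genes and YBX1, –YBX1 minus +YBX1, in SCC25 (left) and SCC15 (right), as the limma estimate with its 95% interval and the 3 same-numbered pairs. EREG is not drawn for SCC15, where it had 0 to 2 reads. The drawn intervals of the family genes include 0, while those of YBX1, around -2.01 and -2.15, do not.

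In the pathway lists 0 genes were called under knockdown, where 0.00% of all genes were. At an unadjusted p under 0.05 there were 4 of 20 EGF-induced genes and 2 of 23 turnover genes in SCC15. There were 0 of 30 adaptors and kinases, 0 of 11 shedding genes and 0 of 2 other family genes, where 2.32% of all genes were. In SCC25 there were 0 of 20, 0 of 23, 0 of 30, 0 of 11 and 0 of 2, where 3.09% of all genes were. The groups of SCC15 did not overlap for 4 of 20 EGF-induced and 4 of 23 turnover genes, against 7.04% of all genes. For the other lists of SCC15 it was 0 of 30, 0 of 11 and 0 of 2. In SCC25 it was 2 of 20, 1 of 23, 2 of 30, 0 of 11 and 0 of 2, against 7.31%. Those 4 EGF-induced genes of SCC15 shared no direction, with DUSP4 and PHLDA1 higher and ETV4 and SPRED2 lower in –YBX1. The 4 with an unadjusted p under 0.05 were DUSP4, PHLDA1 and FOS, higher, and ETV4, lower. Summed reads in SCC15 +YBX1 and –YBX1 were 12 and 46 for DUSP4 and 37 and 74 for PHLDA1. They were 3 and 13 for FOS and 2 and 0 for ETV4. ETV4 had at most 1 read in any SCC15 library, so its lack of overlap rests in part on library size. Each gene named next had the lowest p of its list in that line. The exception is PIK3CA in SCC25, whose values there and interaction were named after they were seen. DUSP4, an ERK phosphatase among the EGF-induced genes, was 1.64 higher on the log2 scale in SCC15 –YBX1 (SE 0.48, unadjusted p = 0.00417, adjusted p = 1.00). In the same line LRIG2, a leucine-rich repeat membrane protein, was higher by 1.95 (unadjusted p = 0.0257), and PIK3CA, the catalytic subunit of PI3K, lower by 1.98 (unadjusted p = 0.0776), with 6, 13 and 3 reads in SCC15 +YBX1 and 1, 9 and 0 in SCC15 –YBX1. In SCC25 PIK3CA had 1, 12 and 14 reads in +YBX1 and 20, 24 and 26 in –YBX1, a difference of 1.85 (unadjusted p = 0.0964) without overlap, and its interaction was 3.83 (SE 1.47, unadjusted p = 0.0208, adjusted p = 1.00). In SCC25 the lowest unadjusted p of each list was 0.0957 for VAV3 (0.79), 0.100 for SPRY4 (-1.32), 0.258 for STAMBP (-0.18), 0.413 for RHBDF1 (0.28) and 0.421 for NRG2 (0.44). FRMD8 had 0.0592 (-0.54) in SCC15.

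Genes whose level ran most like that of EGFR over the 15 libraries were sought among the 6493 genes above the median level that are not in the family. The 5 highest Pearson correlations were with SAT1 (0.984), RNR2 (0.980), SMAD3 (0.977), IGSF3 (0.975) and INHBA (0.972). The libraries fall into 1 group of SCC15 and 1 of the other lines, so these values mostly restate that separation and no p is given. Within the groups, as deviations from the group means, the correlations were 0.845 for SAT1, 0.852 for RNR2, 0.787 for SMAD3, 0.654 for IGSF3 and 0.585 for INHBA. The genes were picked on these same libraries, so their values within groups are partly selected and are no independent evidence of likeness. Mean levels of SMAD3, a transducer of TGF-beta signals, were 6.303 in OKF6, 6.81 in SCC25 +YBX1 and 4.60 in SCC15 +YBX1.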

How the data were processed

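Libraries were made by the authors with the QuantSeq 3′ FWD kit. Their pipeline used Cutadapt for trimming, HISAT2 for alignment to hg38, featureCounts for gene counts and limma for filtering and normalization. The deposited log2 CPM values form a table of the lines and a table of the knockdown, with 6 libraries in common (differences at most 5e-08). Both hold 12995 genes, and 100% of the deposited values gave whole reads. The tolerance was 0.01 reads and widened in proportion to the count for high counts, so the check says little for the highest ones. The sources do not say whether replicates are separate cultures, so p-values measure the spread between these libraries. Replicates differed by more than sampling noise (chi-square per degree of freedom 3.99 to 80.8). Intervals of read ratios are exact binomial, 95%, and cover counting error only.

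Comparisons were made in R 4.3.3 with limma 3.58.1 (variance trend, all groups of a table in the fit, two-sided, Benjamini-Hochberg over all genes, threshold 0.05). The code was tested on simulated data. The members and lists were chosen with earlier results of these data known, so the lists are no independent evidence. Genes named from a list are those called with the largest change (up to 4 per list in SCC15 against SCC25 and 2 in the other comparisons of lines), or the lowest p under knockdown. KRT5, TP63, ADAM17, the mesenchymal markers and the SCC25 values of PIK3CA were named after their values were seen. Same-numbered libraries of a line had correlations of 0.117 to 0.498 in SCC15 and 0.135 to 0.470 in SCC25, over 6497 genes. Libraries of other numbers had -0.41 to 0.345 in SCC15 and -0.529 to 0.239 in SCC25. SCC15 +YBX1 replicate 2 was closer to –YBX1 replicate 3 (0.345) than to –YBX1 replicate 2 (0.312). SCC15 +YBX1 replicate 3 was closer to –YBX1 replicate 2 (0.175) than to –YBX1 replicate 3 (0.117). The pairing comes from the replicate numbers in the labels, which these values bear out only in part in SCC15. Across lines no pair of groups had all 3 correlations above 0.1, though they reached 0.085 to 0.467 for OKF6 with SCC25 –YBX1 and 0.071 to 0.12 for SCC15 –YBX1 with SCC25 +YBX1. Gene positions are from GENCODE 44. The 3′ end of each member's canonical transcript, in pieces of 75 bases, mapped (minimap2 2.31) to no other place as well as to its own.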

Additional observations from a re-analysis of the deposited data

How the results depend on the processing

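The alternatives were a replicate block, only the compared groups in the fit, 2 other scalings (quantile, or library medians set equal), a fit with no variance trend or with robust empirical Bayes, a filter that keeps genes above the first quartile, log2 of CPM plus 1, voom weights on recovered reads, and leaving out each library. Of 1022 values under alternatives, 955 kept their direction and their side of the threshold, counts within 1.5 times. Library medians set equal moved the median of all genes from -0.01 to 0.14 in SCC15 against SCC25 and from 0.10 to 0.26 in SCC15 against OKF6, and quantile normalization moved it from 0.13 to -0.05 in SCC25 against OKF6. The calls over all genes in the last comparison went from 2450 higher and 1473 lower to 2006 and 1837. No family gene turned direction under either scaling.

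In SCC25 against OKF6 the family genes called were 1, but 2 with only the compared groups, with quantile normalization or with voom, 3 with log2 of CPM plus 1, 1 to 2 without a library, and 0 among the 5 family genes above the first quartile, which left out EREG and ERBB3. Leaving out a library gave -0.0101 to 0.921 for EGFR and -0.201 to 0.00975 for ERRFI1 in that comparison. Under knockdown in SCC25 it gave -0.25 to 0.37 for EGFR, -0.0271 to 0.466 for ERBB2, -0.63 to 0.86 for ERBB3, -0.4997 to 0.0512 for TGFA, -0.0694 to 0.344 for EREG, -0.10 to 0.58 for ERRFI1 and 0 to 6 calls over all genes. In SCC15 it gave -0.18 to 0.66 for EGFR, -0.14 to 0.19 for ERBB2 and -0.31 to 0.15 for HBEGF. The interaction ranged from -0.62 to 0.27 for EGFR, -0.10 to 0.40 for ERBB2, -1.003 to 0.487 for ERBB3 and -0.34 to 0.34 for ERRFI1, and that of ERBB3 was 0.0209 with log2 of CPM plus 1. The cause was not tested.

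The replicate block, and the block within each line added after the data were seen, changed no call of a family gene and left 0 genes called under knockdown in both lines. With the block, YBX1 passed in SCC15 against SCC25 (-0.9989, adjusted p = 0.0358, against 0.0581 without it). EREG, ERBB3 and TGFA had 0 to 12 reads per library in SCC15, so their differences there rest on few reads.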
